A study of Homo sapiens with 10 samples.

Results

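The 45 genes described here encode proteins of mitosis, of the spindle and of the kinetochore, and were followed across the human neuroblastoma lines SK-N-AS and SK-N-FI with and without the conjugate BG-P1600-TAT. They were chosen by gene symbol, and each had 1 probe set among the 21448 gene probe sets of a whole-transcript microarray. The array annotation named 17687 gene symbols in all. Treated cells received 30 µM BG-P1600-TAT for 48 h, and control cells received PBS for the same time. The series title describes the conjugate as aimed at both the norepinephrine transporter and the integrin αvβ3. Treated SK-N-AS had 3 arrays (28, 29 and 30) and control SK-N-AS had 3 (25, 26 and 27). Treated SK-N-FI had 2 arrays and control SK-N-FI had 2, each pair numbered 1 and 2. Every culture of both lines was kept in IMDM with fetal serum. The SK-N-AS titles shorten the compound to BG-P-TAT, and this was read as the same BG-P1600-TAT that the protocol names. No label says whether the 6 SK-N-AS arrays stem from different cultures. P-values in that line therefore rest on array-to-array spread, part or all of which may be technical.

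Mitosis is driven by CDK1 bound to cyclins, which CDC25 phosphatases switch on. Kinetochores then join chromosomes to spindle microtubules, a checkpoint holds the cell until every kinetochore is attached, and the anaphase-promoting complex releases the sister chromatids by destroying securin and cyclin B. Most of these genes are transcribed late in the cell cycle, when MuvB complexes with B-MYB and FOXM1 replace the repressive DREAM complex at a promoter element called the cell cycle genes homology region, often beside CCAAT boxes bound by NF-Y. Their mRNA is therefore used as a measure of proliferation in tumours, neuroblastoma included. In RNA from whole cultures, fewer cycling cells and less of these mRNAs per cell cannot be told apart.

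The promoter element that defines this family in textbooks could be read directly in the RefSeq windows of GRCh38.p14, which run from 250 bases before to 50 bases after the annotated start. Windows were found for 38 of the 45 genes. The letters TTTGAA, the core of the cell cycle genes homology region, were searched on both strands. A gene counted as a match if any of its windows held the letters, and all 27305 genes had 35116 windows. TTTGAA occurred in 27 of the 38 genes (71.1%), against 18.2% of 27305 genes. CCAAT, also on either strand (ATTGG on the printed strand is the same box on the other strand), occurred in 31 of 38 (81.6%), against 39.7% of all genes. Both stood in the same window for 22 of 38 genes (57.9%), against 7.26% of all genes. In a second list of mitosis genes, 31 of 60 genes with a window held TTTGAA (51.7%), whereas 2 of 33 DNA replication genes did (6.06%). CCAAT stood in 40 of these 60 mitosis genes (66.7%) and in 20 of the 33 replication genes (60.6%). The variant TTTAAA stood in 16 of 38 genes (42.1%), against 14.5% of all genes. In the second mitosis list it stood in 4 of 60 (6.67%), and in the replication list in 4 of 33 (12.1%). A match describes letters and is not evidence of binding. The 150 bases before the start are printed for 6 genes, with both motifs in capitals. CCNB2 shows the known layout of CCAAT boxes followed by the homology region, PLK1 and CDC20 were highest on SK-N-AS arrays 25 and 28, and MKI67, KIF23 and HMMR were lowest there, a contrast described further on.
CCNB2 (chr15:59104996-59105145, plus strand): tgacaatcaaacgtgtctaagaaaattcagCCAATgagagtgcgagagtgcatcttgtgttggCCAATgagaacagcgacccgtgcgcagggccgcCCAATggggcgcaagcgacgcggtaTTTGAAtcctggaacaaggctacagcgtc
PLK1 (chr16:23678739-23678888, plus strand): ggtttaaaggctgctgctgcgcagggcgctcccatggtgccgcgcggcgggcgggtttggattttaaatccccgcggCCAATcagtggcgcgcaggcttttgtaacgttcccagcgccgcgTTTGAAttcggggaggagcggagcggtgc
CDC20 (chr1:43358831-43358980, plus strand): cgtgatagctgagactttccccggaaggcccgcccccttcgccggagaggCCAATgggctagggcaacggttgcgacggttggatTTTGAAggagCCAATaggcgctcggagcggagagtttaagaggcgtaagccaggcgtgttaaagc
MKI67 (chr10:128126424-128126573, minus strand): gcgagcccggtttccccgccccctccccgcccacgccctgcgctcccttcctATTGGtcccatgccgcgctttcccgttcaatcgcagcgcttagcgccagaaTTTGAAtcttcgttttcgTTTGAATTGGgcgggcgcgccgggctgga
KIF23 (chr15:69414199-69414348, plus strand): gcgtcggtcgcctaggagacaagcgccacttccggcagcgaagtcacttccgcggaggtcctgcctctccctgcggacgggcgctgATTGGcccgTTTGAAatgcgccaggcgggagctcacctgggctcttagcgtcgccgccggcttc
HMMR (chr5:163460482-163460631, plus strand): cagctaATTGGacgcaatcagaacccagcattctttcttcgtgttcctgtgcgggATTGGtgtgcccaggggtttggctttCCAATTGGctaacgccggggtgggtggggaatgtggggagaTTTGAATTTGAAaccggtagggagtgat
The homology region began 29 bases before the start in CCNB2 and in PLK1, 65 bases before it in CDC20 and 55 bases before it in KIF23. MKI67 held it at 47 and at 29 bases, and there the copy nearer the start overlapped an ATTGG. HMMR held 2 adjacent copies at 28 and 22 bases, and its CCAAT box 69 bases before the start overlapped an ATTGG 66 bases before it. Genes on both sides of the contrast between arrays thus carried the element in these windows. The line differences described below (control SK-N-AS minus control SK-N-FI, log2) ran from -5.53 to -0.01 for the 27 genes with TTTGAA, with a median of -3.15. They ran from -5.62 to 0.11 for the 11 without it, with a median of -2.66, and the ranges overlapped almost wholly. The ends at -5.53 (CENPF), -5.62 (CENPE) and -0.01 (CENPA) rest on SK-N-AS control signals below the background set in the next paragraph. CENPA was below it in SK-N-FI as well, so these ends are not measured differences.

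The values are deposited log2 signals, and an array's background was set at the 95th percentile of its 612 negative control probe sets. In SK-N-AS, 20 of the 45 genes were above background on all 6 arrays, 16 on some and 9 on none. In SK-N-FI, 44 were above background on all 4 arrays, and CENPA was on none. Over all probe sets, 30.9% exceeded background on every SK-N-AS array and 38.1% on every SK-N-FI array. Among checks of the label, 7 noradrenergic neuroblastoma genes were measured. HAND2, GATA3 and ISL1 were above background on every array of both lines, PHOX2A, DBH and GAP43 on no SK-N-AS array and on every SK-N-FI array, and TH on none. Of 8 mesenchymal genes, VIM, SNAI2 and CD44 were above background on every array of both lines. FN1 and FOSL1 were on all SK-N-AS arrays and on no SK-N-FI array, YAP1 on 3 and PRRX1 on 1 of the SK-N-AS arrays alone, and COL1A1 on none. The 4 endothelial markers were below background on all arrays, as were 4 of 5 epithelial ones, while the keratin KRT8 was above it on 5 of 6 SK-N-AS and on all SK-N-FI arrays. The blood markers CD3E, CD14 and LYZ were on none. PTPRC and HBA1, also blood genes, were above background on 5 of 6 SK-N-AS arrays and on no SK-N-FI array, and their part in the line differences was not tested. Arrays 25 and 28 stood apart within SK-N-AS for many of these genes, so that results resting on them are also given without both.

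The array means placed the lines far apart and the treatments close together. On deposited values, the mean over the 45 genes was 7.80, 7.94 and 8.53 on SK-N-AS treated arrays 28, 29 and 30. It was 7.69, 8.26 and 8.02 on SK-N-AS control arrays 25, 26 and 27. SK-N-FI treated arrays 1 and 2 had means of 12.14 and 11.99, and the 2 SK-N-FI control arrays had 12.06 each. Treated and control arrays overlapped in both lines, whereas the highest SK-N-AS array lay below the lowest SK-N-FI array. The treated minus control difference of the means was 0.10 in SK-N-AS and 0.0044 in SK-N-FI, under the SD between the arrays of a group in SK-N-AS (0.39 treated and 0.29 control, n = 3 each) and in treated SK-N-FI (0.11, n = 2). The SD of control SK-N-FI was smaller than the difference in that line, at 0.0016 (n = 2).

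**Figure D1:**
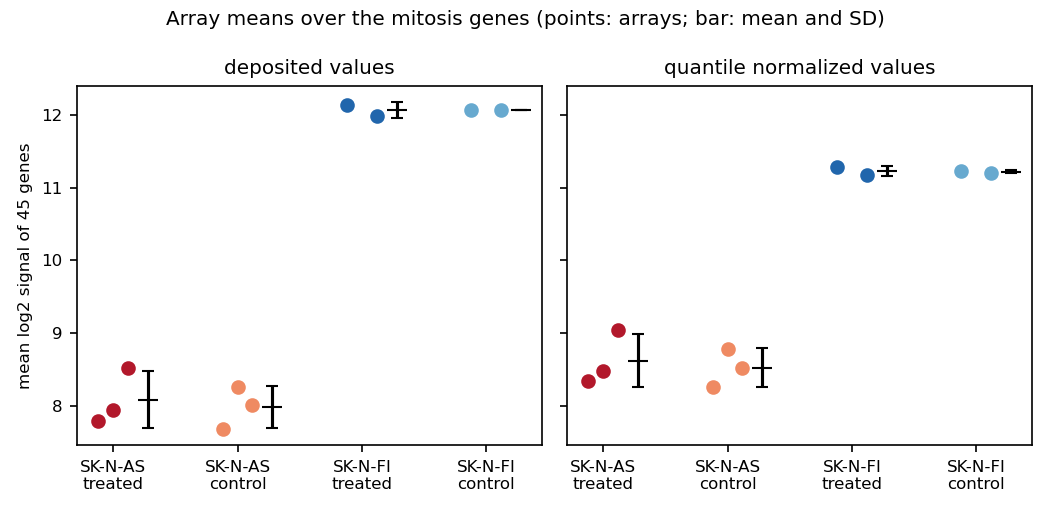
Mean log2 signal of the 45 genes on each array, on deposited values (left) and after quantile normalization over 10 arrays (right), with each group's mean and SD beside its points. Treated and control arrays overlap within each line, and on deposited values the SK-N-AS arrays lie between 7.69 and 8.53 against 11.99 to 12.14 for SK-N-FI.

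Each line seems to have had its own normalization by the authors, since array medians over all gene probe sets lay between 5.75 and 5.81 in SK-N-AS and between 6.61 and 6.62 in SK-N-FI. The line comparisons therefore rest on values quantile normalized over all 10 arrays, which give each array the same distribution. On that scale the array means were 8.35, 8.48 and 9.04 in treated SK-N-AS, and 8.26, 8.79 and 8.53 in control SK-N-AS. They were 11.28 and 11.18 in treated SK-N-FI and 11.23 and 11.20 in control SK-N-FI. The SK-N-AS minus SK-N-FI difference of the means was -2.60 for treated arrays, against -3.98 on deposited values. For control arrays it was -2.69, against -4.07 on deposited values. Over the 20 genes above background on all 10 arrays, it was -1.90 for treated and -1.81 for control arrays on the quantile scale. The mean was lower in SK-N-AS on each of these scales, while the size depended on the scale. Line and any difference in processing cannot be told apart.

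**Figure D2:**
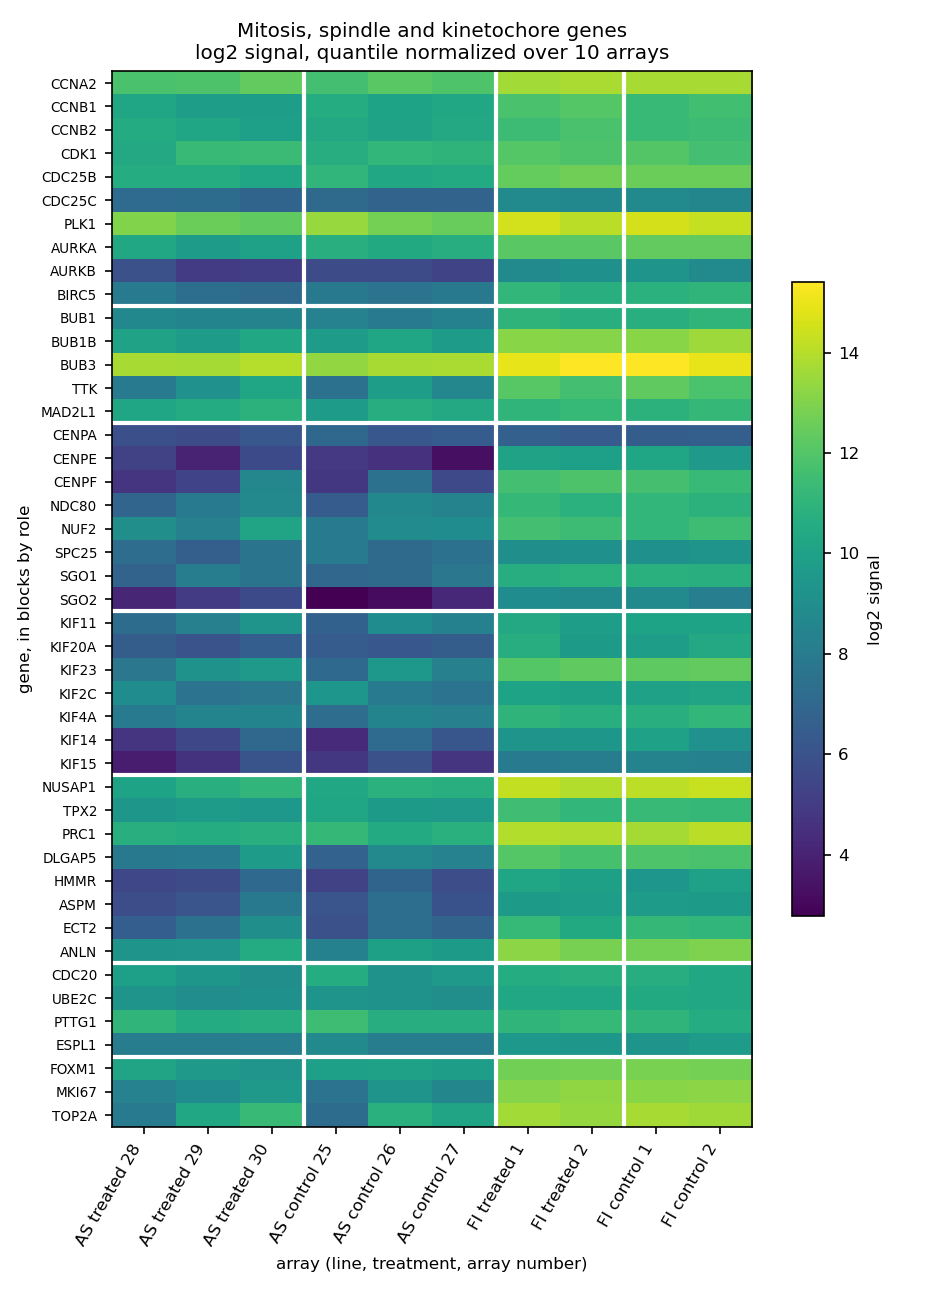
Log2 signal of the 45 genes on 10 arrays after quantile normalization, with genes in 7 blocks by role and arrays in 4 groups. Most rows are darker in the 6 SK-N-AS columns than in the 4 SK-N-FI columns, while neighbouring treated and control columns of a line look alike except for rows such as TOP2A and CENPF, where arrays 28 and 25 are darker than the rest of their groups.

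The comparison of control cells asked how much of the mitotic programme the lines shared without the conjugate. In control SK-N-AS, 42 of the 45 genes were called lower than in control SK-N-FI (93.3%) and none was called higher (limma, adjusted p under 0.05). For 40 of them the fitted difference was also at least 2-fold. Over all probe sets, 22.5% were called lower, 24.1% were called higher and 17.3% passed the 2-fold rule as well. Among probe sets above background on both SK-N-FI control arrays, 34.3% were called lower. The median log2 difference of the 45 genes was -2.92, beside 0.04 for all probe sets, and it was -2.06 with 11 genes set to their bound. Those 11 were above background in control SK-N-FI and on no SK-N-AS control array, and CENPA was on none in either line. SGO2 and KIF15, counted among the 40, have bounds of 1.79- and 1.7-fold, so a 2-fold difference is not measured for them. CENPA, CDC20 and PTTG1 were not called. The number of genes called was 38 without either SK-N-FI control array, 40 without SK-N-AS control array 27 and 41 without array 25. The calls lost there were those of CDK1 and MAD2L1, and, without an SK-N-FI array, also those of KIF11 and KIF2C, while CDC20 was called without array 25. Without arrays 25 and 28, 42 genes were called, with CDC20 in place of MAD2L1.

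The 6 genes with the largest fitted differences were CENPE, CENPF, SGO2, MKI67, ECT2 and TOP2A. Of these, 4 were below background on every SK-N-AS control array and have only a bound, so their order is not measured. CENPE, the kinesin that carries chromosomes at kinetochores, had 4.89, 4.58 and 3.32 on the SK-N-AS control arrays, against 10.23 and 9.54 on the SK-N-FI control arrays (quantile normalized log2 signal). It was below background on every SK-N-AS array and at least 4.83-fold lower there (fitted difference, adjusted p = 3.14e-06). CENPF, a large kinetochore protein, had 4.82, 7.53 and 5.56 in control SK-N-AS, against 11.69 and 11.30 in control SK-N-FI. It was at least 14.8-fold lower, again with each SK-N-AS control array below background (fitted difference, adjusted p = 6.87e-04). A bound is given where the dim line gave no level, computed against the lowest signal above background on each array. The adjusted p beside a bound tests the fitted difference, which uses signals below background, and not the bound.

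SGO2, a shugoshin that protects centromeric cohesion, had 2.78, 3.15 and 4.19 on the SK-N-AS control arrays and 8.75 and 8.16 on the SK-N-FI control arrays. SGO2 was at least 1.79-fold lower in SK-N-AS (fitted difference, adjusted p = 2.82e-06). ECT2, the exchange factor that activates RhoA for cytokinesis, had 5.90, 7.34 and 6.81 in control SK-N-AS and 11.17 and 11.10 in control SK-N-FI. These arrays did not overlap, and ECT2 was at least 11.5-fold lower (fitted difference, adjusted p = 9.13e-05). MKI67, the Ki-67 antigen that coats mitotic chromosomes, had 7.59, 9.31 and 8.59 in control SK-N-AS, with 2 of the 3 arrays above background, and 13.18 and 13.23 in control SK-N-FI. It was 26.2-fold lower (log2 difference -4.71, 95% interval -5.67 to -3.75, adjusted p = 4.46e-06). TOP2A, the topoisomerase that untangles sister chromatids, had 7.22, 10.79 and 10.13 in control SK-N-AS, against 13.76 and 13.58 in control SK-N-FI. TOP2A was 19.5-fold lower (log2 difference -4.29, -6.41 to -2.16, adjusted p = 3.45e-03), and array 25 lay well under the other SK-N-AS control arrays. TOP2A exceeded background on 2 of the 3 SK-N-AS control arrays. The fold was 16.4 with array 25 at the lowest signal above background. It was 9.25 without array 25 and 31.8 without array 26. No gene was called higher in SK-N-AS, so there was no counterpart in the other direction.

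The mitotic kinases, cyclins and phosphatases were called lower in control SK-N-AS in 10 of 10 cases, with a median log2 difference of -1.77, and -1.50 with 2 genes at their bound. CCNA2, an A-type cyclin, was 3.63-fold lower, and the B-type cyclins CCNB1 and CCNB2, partners of CDK1, were 2.19- and 2.13-fold lower. CDK1 itself was 1.88-fold lower (adjusted p = 0.0324). CDC25B, an activator of CDK1, was 3.76-fold lower, and its relative CDC25C, below background on every SK-N-AS array, was at least 2.12-fold lower. PLK1, a kinase of centrosomes and kinetochores, was 2.9-fold lower. AURKA, the spindle pole kinase, was 3.36-fold lower. AURKB and BIRC5 are both subunits of the chromosomal passenger complex. AURKB was at least 2.74-fold lower, and BIRC5, above background on 2 of 3 SK-N-AS control arrays, was 8.86-fold lower.

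The spindle assembly checkpoint genes were called lower in 5 of 5 cases, with a median log2 difference of -2.66. BUB1B, which inhibits the anaphase-promoting complex, was 11.1-fold lower, with SK-N-AS control arrays at 9.71, 10.24 and 9.70 and SK-N-FI control arrays at 13.16 and 13.55. The checkpoint kinase BUB1 was 6.3-fold lower. BUB3, which brings both to kinetochores, was 2.92-fold lower. TTK, the kinase at the top of the checkpoint, was 10.8-fold lower, with a wide interval of the log2 difference (-4.85 to -2.0). It exceeded background on 2 of 3 SK-N-AS control arrays. With the other array at the lowest signal above background it was 9.72-fold lower. MAD2L1, the core inhibitor of CDC20, was 1.72-fold lower, and its adjusted p of 0.0449 was the closest to the threshold among the 42 called genes.

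Of the centromere and kinetochore genes, 7 of 8 were called lower (median -3.30). The exception, CENPA, the centromeric histone, was below background on all 10 arrays and has no measured level. NDC80 and NUF2, which form the microtubule-binding arm of the NDC80 complex, were 8.9- and 6.63-fold lower, and SPC25, of the same complex, was 3.23-fold lower. SGO1, the other shugoshin, was 10.9-fold lower. SPC25 and SGO1 exceeded background on 1 of 3 SK-N-AS control arrays each, and NDC80 and NUF2 on 2 of 3. With the other arrays at the lowest signal above background, SPC25 and SGO1 were 2.89- and 7.75-fold lower. NDC80 and NUF2 were then 6.29- and 6.62-fold lower. The median of the 8 was -2.50 with 3 genes at their bound. The kinesin motors were called lower in 7 of 7 cases (median -3.22, and -2.14 with 3 at their bound). KIF23, a motor of the central spindle, was 16.3-fold lower, and KIF4A, which shortens the overlapping microtubules there, was 7.58-fold lower. KIF11, the motor that pushes spindle poles apart, was 4.39-fold lower, and KIF2C, a microtubule depolymerase, 3.29-fold. KIF23, KIF4A and KIF11 exceeded background on 2 of 3 SK-N-AS control arrays. With the other array at the lowest signal above background they were 13.3-, 6.51- and 3.27-fold lower. KIF20A was at least 5.71-fold, KIF14 at least 3.92-fold and KIF15 at least 1.7-fold lower, each below background on every SK-N-AS array.

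All 8 spindle and cytokinesis genes were called lower (median -3.59, and -3.30 with 3 at their bound). DLGAP5, a spindle-stabilising protein, was 14.9-fold lower, NUSAP1, which bundles microtubules near chromatin, 12.3-fold, and ANLN, the scaffold anillin of the contractile ring, 11.8-fold. DLGAP5 exceeded background on 2 of 3 SK-N-AS control arrays. With the other array at the lowest signal above background it was 11.2-fold lower. PRC1, which bundles the midzone, was 8.41-fold lower, while TPX2, the activator of AURKA, was 2.64-fold lower. HMMR and ASPM, both found at spindle poles, were at least 4.3- and at least 4.16-fold lower. FOXM1, the transcription factor of this gene programme, was 7.49-fold lower, with SK-N-AS control arrays at 9.92, 10.01 and 9.82 and SK-N-FI control arrays at 12.86 and 12.78. The 3 proliferation genes FOXM1, MKI67 and TOP2A were all called (median -4.29).

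Of the 4 genes of anaphase and cohesion release, 2 were called, and their median log2 difference was -0.97. UBE2C, the ubiquitin-conjugating enzyme of the anaphase-promoting complex, and ESPL1, the protease separase, were each 2.33-fold lower. CDC20, the activator of that complex, had 10.57, 9.23 and 9.58 in control SK-N-AS and 10.66 and 10.36 in control SK-N-FI, which overlapped (log2 difference -0.71, -1.53 to 0.10, adjusted p = 0.137). PTTG1, securin, had 11.48, 10.63 and 10.65 in control SK-N-AS and 11.03 and 10.60 in control SK-N-FI (log2 difference 0.11, -0.54 to 0.75, adjusted p = 0.796). The interval for PTTG1 did not reach a 2-fold difference in either direction on this scale. On deposited values all 45 genes, CENPA, CDC20 and PTTG1 included, were called lower in SK-N-AS, where 47.8% of all probe sets were.

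**Figure D3:**
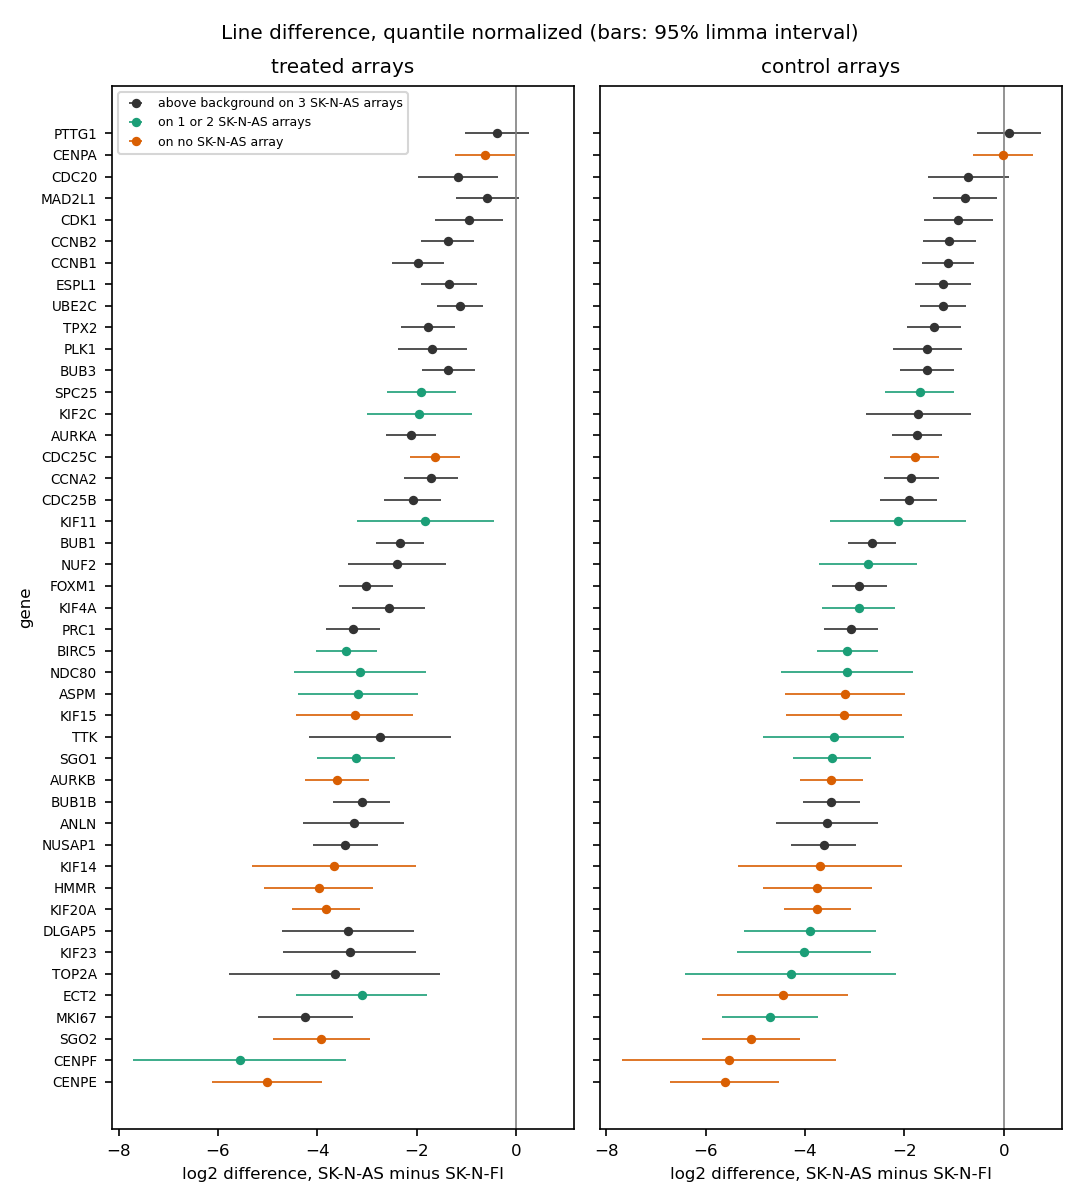
Log2 difference (SK-N-AS minus SK-N-FI) of each of the 45 genes after quantile normalization, for treated arrays (left) and control arrays (right), with 95% limma intervals and colours for how many of the 3 SK-N-AS arrays exceeded background. In each panel 42 genes are called lower, and PTTG1 stands at the high end of the control panel, which sets the order. Places of genes in orange rest on SK-N-AS signals below background and are not measured.

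The same comparison in treated cells took its group means from arrays other than those of the control comparison. Both comparisons shared the quantile scale and the estimate of spread over all 10 arrays, so they are not independent. In treated SK-N-AS, 42 of 45 genes were again called lower than in treated SK-N-FI (93.3%), with none higher, beside 21.9% of all probe sets called lower and 34.2% of those above background on both treated SK-N-FI arrays. The 2-fold rule, which uses the fitted difference, was also met by 41, beside 16.7% of all probe sets. The median log2 difference was -2.74, and -2.12 with 8 genes at their bound. KIF15, counted among the 41, has a bound of 1.53-fold, so a 2-fold difference is not measured for it. MAD2L1, CENPA and PTTG1 were not called. CENPF had 4.67, 5.30 and 8.62 on the SK-N-AS treated arrays, against 11.63 and 11.89 on the SK-N-FI treated arrays (adjusted p = 6.76e-04). Array 30 alone exceeded background in SK-N-AS, and the fitted log2 difference of -5.56 (-7.72 to -3.41) became -3.83, or 14.2-fold, with the other arrays at the lowest signal above background. CENPE was at least 5.69-fold lower, MKI67 was 18.9-fold lower and TOP2A 12.6-fold. CCNB1 was 3.93-fold lower in treated SK-N-AS, with 10.19, 9.85 and 9.79 against 11.78 and 12.05 in treated SK-N-FI. The number called was 36 without SK-N-FI treated array 1, 38 without SK-N-FI treated array 2, 40 without SK-N-AS treated array 28 or 29, and 42 without array 30. The calls lost in 1 or more of these fits, or without array 30, were those of CDC20, CDK1, KIF11, KIF2C, TOP2A and TTK.

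Treatment with BG-P1600-TAT gave no called change among the 45 genes in SK-N-AS. Limma called 0 of 45 and 0 of all 21448 probe sets (0%), and an unadjusted p under 0.05 was reached by 2 of the 45 and by 557 probe sets (2.6%). The log2 changes, treated minus control, ran from -0.57 (AURKA) to 1.47 (SGO2), with 25 above and 20 below 0. Their median was 0.10, beside -0.0047 for all probe sets. It changed sign without SK-N-AS treated array 30 (-0.11) or control array 25 (-0.06) and with weighted arrays (-0.02), and was 0.22 without control array 26, 0.25 without treated array 28 and 0.06 without arrays 25 and 28. Over the 20 genes above background on every SK-N-AS array the median was -0.12. The 95% interval lay within a 2-fold change for 23 of 45 genes and within a 4-fold change for 41.

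The 6 genes with the smallest p in SK-N-AS are given by array, on the deposited log2 scale. SGO2 had 4.10, 4.90 and 5.37 on treated arrays 28, 29 and 30, against 2.77, 3.10 and 4.10 on control arrays 25, 26 and 27. All 6 values lay below background, so that the change of 1.47 (0.54 to 2.39, unadjusted p = 0.00586, adjusted p = 1.00) is a difference between signals with no measured level. AURKA had 9.68, 9.03 and 9.44 in treated SK-N-AS, against 9.97, 9.82 and 10.06 in control SK-N-AS. The groups did not overlap, and the change was -0.57 (-1.08 to -0.05, unadjusted p = 0.0339, adjusted p = 1.00). BUB1 had 7.95, 7.81 and 7.87 in treated and 7.60, 7.44 and 7.71 in control SK-N-AS, also without overlap (0.29, -0.14 to 0.73). Arrays without overlap were found for 2 of the 45 genes in the higher direction (3.29% of all probe sets) and for 1 in the lower direction (4.02%).

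CCNB1 had 9.50, 9.13 and 9.21 in treated SK-N-AS and 9.85, 9.46 and 9.67 in control SK-N-AS (log2 change -0.38, -0.86 to 0.10). CENPA had 5.54, 5.45 and 5.88 in treated and 6.39, 5.87 and 6.04 in control SK-N-AS, all below background. ECT2 had 6.09, 6.95 and 8.48 in treated and 5.60, 6.83 and 6.35 in control SK-N-AS, and the change of 0.92 (-0.34 to 2.18) was 0.26 in the lowest and 1.46 in the highest fit with 1 array left out. None of the 3 passed the test. By role, the 10 kinases, cyclins and phosphatases had a median change of -0.20, with 3 above and 7 below 0. The 5 checkpoint genes had a median of 0.29, with 5 above 0, but 3 without treated array 30 and 4 without control array 25. The 4 genes of anaphase and cohesion release had a median of -0.17, with 0 above 0, but 3 when control array 25 was left out and 1 when control array 26 or treated array 29 was. For SK-N-FI, 2 of the 5 and 2 of the 4 lay above 0. The kinetochore genes had a median of 0.23, the spindle and cytokinesis genes 0.14, the kinesins 0.00 and the 3 proliferation genes 0.44, none with a called member.

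In SK-N-FI the changes covered a narrower range. Limma called 0 of 45 genes and 0 of all probe sets (0%), and an unadjusted p under 0.05 was reached by 0 of the 45 and by 611 probe sets (2.85%). The log2 changes ran from -0.35 (KIF15) to 0.40 (SGO2), with 20 above and 25 below 0 and a median of -0.01. The 95% interval lay within a 2-fold change for 44 of 45 genes. CCNB1 had 12.65 and 12.81 on treated arrays 1 and 2, against 12.24 and 12.48 on control arrays 1 and 2 (deposited log2 signal). Its arrays did not overlap, with a change of 0.37 (-0.14 to 0.89, adjusted p = 1). KIF15, a spindle motor, had 9.04 and 9.0 in treated and 9.41 and 9.33 in control SK-N-FI (-0.35, -0.84 to 0.13), again without overlap. PTTG1 had 11.97 and 12.09 in treated and 11.95 and 11.59 in control SK-N-FI (0.26, -0.27 to 0.79).

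SGO2 had 9.96 and 9.74 in treated and 9.75 and 9.15 in control SK-N-FI, above background on each array but overlapping (change 0.40, -0.22 to 1.02). HMMR had 11.24 and 10.95 in treated and 10.44 and 11.06 in control SK-N-FI, which overlapped (0.35, -0.29 to 0.98). CENPF had 12.52 and 12.68 in treated and 12.53 and 12.22 in control SK-N-FI (0.23, -0.30 to 0.75). Arrays without overlap were found for 3 of the 45 genes in the higher direction (CCNB1, CCNB2 and PTTG1), beside 13.8% of all probe sets. They were found for 5 in the lower direction (AURKA, SPC25, KIF15, UBE2C and FOXM1), beside 14% of all probe sets.

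**Figure D4:**
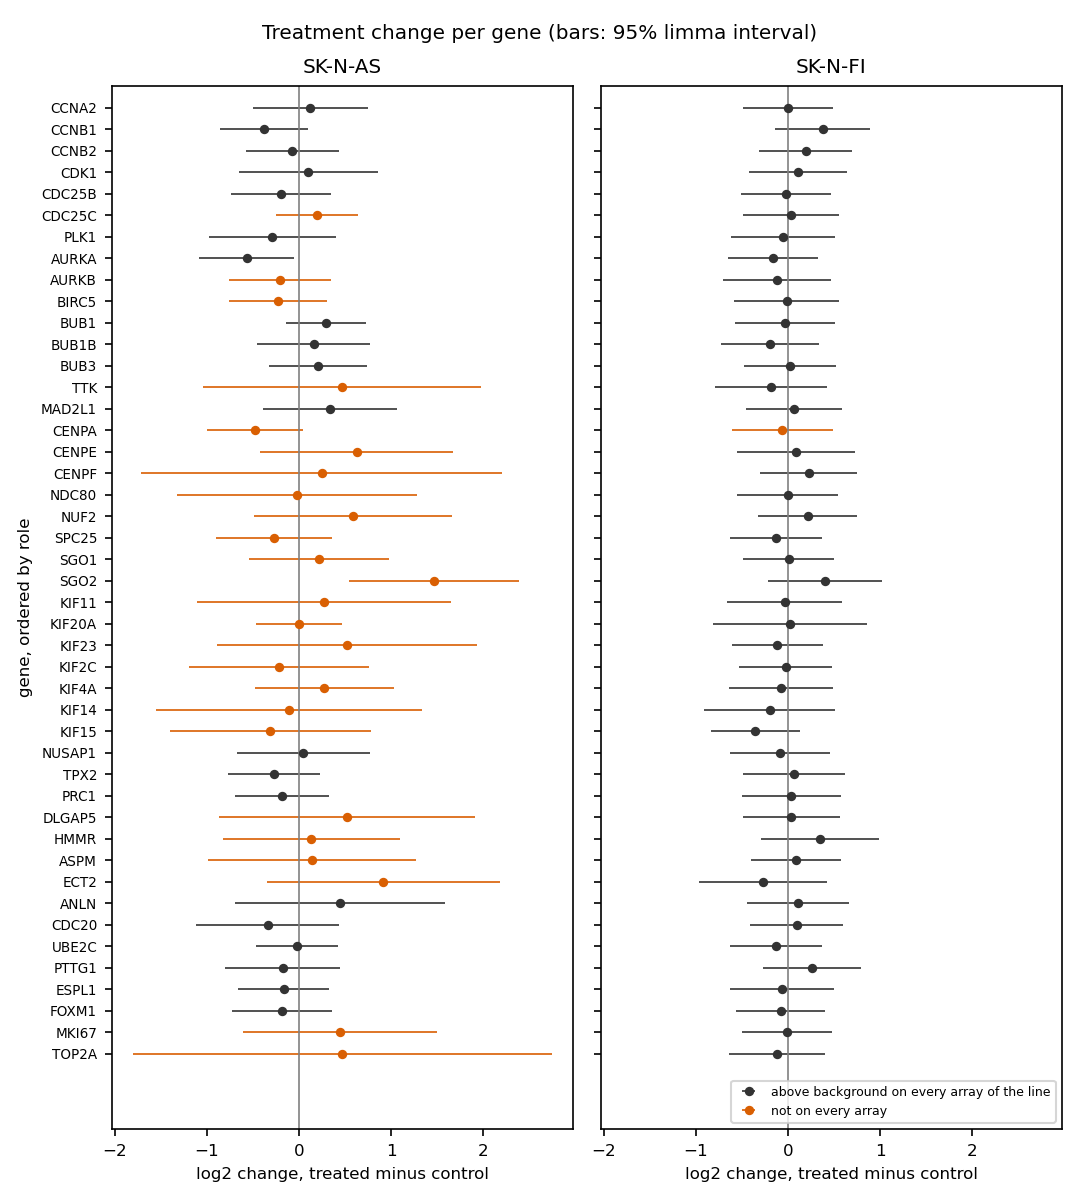
Log2 change (treated minus control) of each of the 45 genes in SK-N-AS (left) and SK-N-FI (right) on deposited values, with 95% limma intervals; orange marks genes not above background on every array of the line. No gene is called in either line, and the intervals are widest in SK-N-AS for TOP2A, CENPF and TTK.

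The difference of the treatment effects, SK-N-AS minus SK-N-FI, was tested in 1 fit of all 10 arrays. Limma called 0 of 45 genes and 0 of all probe sets (0%), and an unadjusted p under 0.05 was reached by 1 of the 45 and by 457 probe sets (2.13%). That gene was CCNB1, with a difference of -0.76 (-1.45 to -0.07, unadjusted p = 0.0339, adjusted p = 1.00). The interval of the difference stayed within 4-fold for 36 of 45 genes and within 2-fold for 13, so that unequal effects of that size lie inside the intervals of the others. ECT2 had 1.19 (-0.53 to 2.92) and SGO2 had 1.07 (-0.22 to 2.35). The effects of AURKA were -0.57 in SK-N-AS and -0.16 in SK-N-FI, with a difference of -0.41 (-1.12 to 0.31).

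The spread between arrays of a group was itself larger for these genes in SK-N-AS. Their median SD was 0.40 in treated and 0.46 in control SK-N-AS, where the median over all probe sets was 0.28 in each. In SK-N-FI it was 0.14 in treated and 0.16 in control arrays, beside 0.18 and 0.17 over all probe sets. The largest SD in treated SK-N-AS was that of CENPF (1.86), and in control SK-N-AS that of TOP2A (1.91). TOP2A had 7.37, 9.59 and 10.70 on treated arrays 28, 29 and 30, and 6.59, 10.19 and 9.48 on control arrays 25, 26 and 27 (deposited log2 signal). Arrays 28 and 25 were thus the lowest of their groups, by 3.01 log2 units on average from the mean of the other arrays.

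This pattern was shared by 19 of the 45 genes, which were lowest on both arrays 28 and 25 (42.2%), beside 17.9% of all probe sets. Among probe sets above background on all 6 SK-N-AS arrays the share was 25.1%, and among the 20 of these genes above background there it was 25%. The deviation of both arrays was below -1 for 11 of the 45 genes (24.4%) and for 4.58% of all probe sets. Among those above background on all 6 SK-N-AS arrays it was so for 1 of 20 genes (5%), beside 6.46% of probe sets. That filter includes arrays 25 and 28 themselves, so a gene low on them can fail it for that reason. TOP2A missed background on array 25 alone. The filtered shares therefore cannot tell whether the pattern belongs to dim genes. The checkpoint kinase TTK deviated by -1.72, CENPF by -1.71, KIF23 by -1.71 and MKI67 by -1.17. In contrast, 5 of the 45 genes were highest on both arrays (11.1%, beside 20.1% of all probe sets), and these were CCNB1, CDC20, KIF2C, PLK1 and PTTG1. KIF2C had 8.17, 6.97 and 7.28 on treated and 8.58, 7.45 and 7.04 on control SK-N-AS arrays. PLK1 had 12.58, 12.03 and 11.84 on treated and 12.99, 12.30 and 12.03 on control SK-N-AS arrays. For both, arrays 28 and 25 lay above the other arrays of their groups, opposite to TOP2A.

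The genome span of the genes at either end was read from RefSeq of GRCh38.p14. The 19 genes lowest on both arrays had a median span of 43.5 kb, and the 5 highest had a median of 11.1 kb. Over all probe sets the same medians were 50.2 and 16.8 kb, and over the 20 genes above background on every SK-N-AS array they were 16.5 and 8.99 kb. Spearman's rho between the deviation and the span was -0.553 over the 45 genes and -0.405 over the 20 above background on every SK-N-AS array. Over 17705 probe sets with a span it was -0.245, and -0.394 over the 5806 of these above background. These points share the same arrays, so the correlations are descriptions across genes. CENPE did not follow them, with a span of 92.5 kb and a deviation of 0.67, all on signals below background. Of the 19 lowest genes, KIF14, HMMR and SGO2 were also below background on every SK-N-AS array, and CENPF and ECT2 were above it on only 1. Whether RNA quality, culture or labelling set arrays 25 and 28 apart was not tested.

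**Figure D5:**
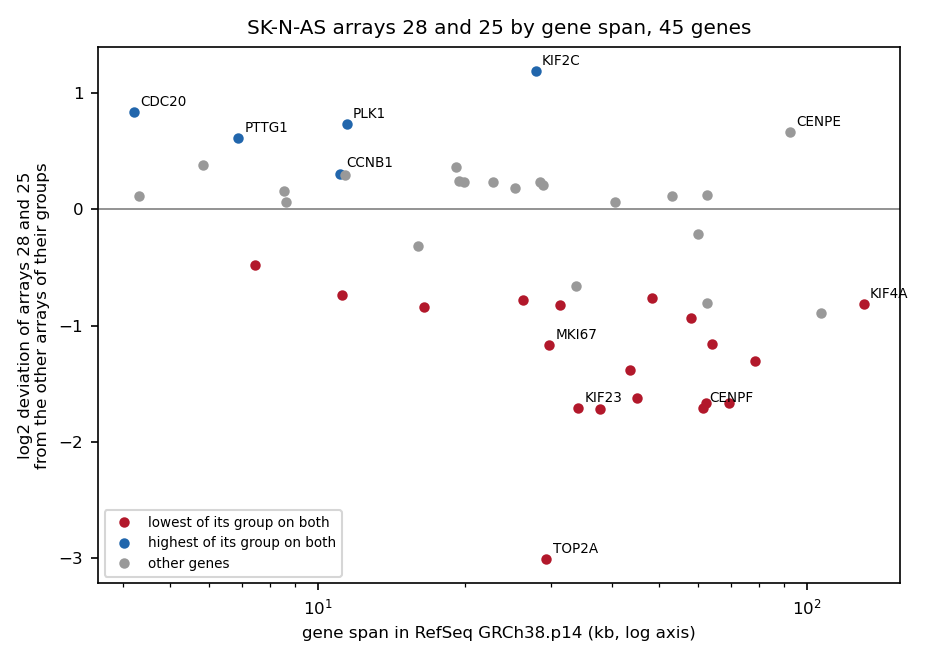
Deviation of SK-N-AS arrays 28 and 25 from the other arrays of their groups (vertical axis, log2, mean of both) against gene span (horizontal axis, kb, log scale) for the 45 genes. Red points, lowest on both arrays, reach down to -3.01 (TOP2A), and the 5 blue points, highest on both, lie above 0 at spans up to 27.9 kb (KIF2C).

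Span also ran along the line difference. Over the 45 genes, Spearman's rho between the SK-N-AS minus SK-N-FI difference and the span was -0.477 for treated and -0.584 for control arrays. Over the 20 genes above background on all 10 arrays it was -0.717 and -0.695, whereas over 5113 such probe sets of all genes it was -0.108 and -0.144. Long genes such as ANLN (63.9 kb) and BUB1B (60.1 kb) had large differences in control cells, and short ones such as PTTG1 (6.89 kb) and CDC20 (4.22 kb) had small ones. TPX2, with a span of 62.5 kb and a 2.64-fold difference, stood away from this order. The correlations share the same arrays, and what part of the line difference moves with span was not tested further.

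Other mitosis genes, taken from a list of 74 with 69 on the array, were placed beside the 45. In control SK-N-AS, 56 of the 69 were called lower and 2 higher than in control SK-N-FI, with a median log2 difference of -2.12. Over all probe sets, 22.5% were called lower and 24.1% higher. In treated cells 55 were lower and 4 higher (median -1.89), beside 21.9% and 23.5% of all probe sets. The 4 with the smallest p in control cells were SPAG5, TROAP, PIMREG and SKA2. SKA2, a subunit of the kinetochore-associated Ska complex, averaged 11.04 ± 0.32 in control SK-N-AS (SD, n = 3) and 14.17 ± 0.23 in control SK-N-FI (SD, n = 2). SPAG5, a spindle protein, was at least 1.14-fold lower and TROAP at least 1.58-fold lower, while PIMREG was below background in both lines. After treatment, 0 of the 69 were called in either line, with medians of 0.08 in SK-N-AS and -0.06 in SK-N-FI.

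The regulators of this programme, a list of DREAM, MuvB and E2F genes with 19 on the array, were also set beside the 45 genes. In control SK-N-AS, 10 of the 19 were called lower and 2 higher (median -0.87), where 22.5% of all probe sets were called lower. Whether this share differs from that of the 45 genes was not tested. E2F1 and E2F2, activators of entry into the cell cycle, were at least 1.24- and at least 1.42-fold lower, each below background on every SK-N-AS control array. E2F8, a repressor of the same family, was at least 2.93-fold lower. TFDP1, the dimerisation partner of E2F proteins, averaged 10.38 ± 0.34 in control SK-N-AS (SD, n = 3) and 11.99 ± 0.26 in control SK-N-FI (SD, n = 2). In treated cells 9 were lower and 1 higher (median -0.84), beside 21.9% and 23.5% of all probe sets. The treatment called 0 of the 19 in either line, with medians of 0.03 in SK-N-AS and -0.04 in SK-N-FI.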

How the data were processed

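Biotin-labelled total RNA was hybridised to Affymetrix whole-transcript arrays, per the labels' protocols. The table deposited by the authors gives a log2 signal for each probe set. RMA and version 4.0.1.36 of the Transcriptome Analysis Console are listed in the submitters' processing notes, with no step given for either. A genome build was not given in the sources used here. RMA removes shifts shared by most genes, so a change common to the whole transcriptome would not be seen.

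Of 24351 rows, 21448 were gene probe sets, 17709 of them with a symbol in the platform annotation and 3739 unnamed here. The 45 genes each had 1 probe set, so no choice between probe sets was needed. Titles gave each array its line and treatment. Within each line, treated and control arrays were compared on deposited values by lmFit and eBayes of limma 3.58.1 (R 4.3.3). The lines were compared, and the difference of the effects was tested, in 1 fit of 10 arrays in 4 groups. Values for the line comparisons were quantile normalized over all arrays. The Benjamini-Hochberg adjustment covered all 21448 probe sets (threshold 0.05). The code was tested on simulated data. Array signals carry no counts, and few arrays per group limit the precision. For SK-N-FI the series design speaks of more replicates than the 2 per group analysed here.

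Values by array were printed for the 6 genes with the smallest p per treatment comparison and the 6 largest called differences in each direction between control groups, and other lists are named by the 4 smallest p. Other genes given by array (CCNB1 in treated cells, BUB1B, FOXM1, CENPF in treated cells, CDC20, PTTG1, TOP2A, KIF2C, PLK1) were picked after their values were seen. The 45 genes and the lists were chosen with earlier results of these data known. Alternatives were other scalings, a filter on dim probe sets, eBayes settings, array weights, left-out arrays and a block on the SK-N-FI array number. The fits without arrays 25 and 28 and with a crossed block were added after seeing the data. In SK-N-FI, deviations of same-numbered arrays from their group means correlated at -0.171, so the numbers were not taken to pair the arrays.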

Additional observations from a re-analysis of the deposited data

How the results depend on the processing

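The median and mean line differences stayed below 0 on every scale tried, while their sizes did not hold, and PTTG1 in control cells had a log2 difference of 0.11 after quantile normalization but -1.48 on deposited values. The median log2 difference of the 45 genes between control groups was -2.92 after quantile normalization, -3.46 after median centring and -4.30 on deposited values, and ranged from -3.02 to -2.72 with single arrays left out. Between treated groups it was -2.74, -3.39 after median centring, -4.23 on deposited values and -2.41 without arrays 25 and 28, with a range of -2.97 to -2.41 over left-out arrays. The difference of the array means between treated groups was -3.98 on deposited values, -3.14 median centred and -2.60 quantile normalized. Between control groups it was -4.07, -3.23 and -2.69 in the same order. Over the 20 genes above background on every array, the treated difference was -3.28 on deposited values and -1.90 quantile normalized. The control difference of these genes was -3.19 and -1.81. When dim probe sets were left out, 5753 of 9137 tested probe sets (treated) and 6053 of 9658 (control) were called. Without that filter 9730 and 9999 of 21448 were called, so the number called fell with the filter while the share called rose. The control comparison called 5172 probe sets higher and 4827 lower after quantile normalization, but 2473 higher and 10253 lower on deposited values. The 42 genes called lower between control groups were all called again on deposited values, after median centring, with array weights, with trended variances and without dim probe sets.

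The treatment comparisons called 0 of the 45 genes under every alternative. With array weights, 1123 probe sets reached an unadjusted p under 0.05 in SK-N-AS, against 557. A replicate block on the SK-N-FI array number called 0 probe sets, with 471 at an unadjusted p under 0.05, against 611 without it. A block with the numbers crossed also called 0, with 924. Averaging probe sets of a symbol changed nothing, as each gene had 1. The median treatment change ranged from -0.11 to 0.25 in SK-N-AS and from -0.12 to 0.08 in SK-N-FI over left-out arrays. Low signal over background limits SK-N-AS most, where 25 of the 45 genes missed background on at least 1 array.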

Other observations

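DNA replication genes, a list of 38 with 37 on the array, lay in the same direction between the lines as the mitosis genes. In control SK-N-AS, 29 of the 37 were called lower and 2 higher than in control SK-N-FI, with a median log2 difference of -1.39 on quantile normalized values. Over all probe sets, 22.5% were called lower and 24.1% higher. In treated cells 29 were lower and 2 higher (median -1.30), beside 21.9% and 23.5% of all probe sets. RRM2, the small subunit of ribonucleotide reductase, averaged 9.39 ± 0.17 in control SK-N-AS (SD, n = 3) and 13.47 ± 0.48 in control SK-N-FI (SD, n = 2), with an adjusted limma p of 1.38e-07. RFC3, a subunit of the clamp loader, averaged 10.13 ± 0.49 in control SK-N-AS and 13.64 ± 0.17 in control SK-N-FI. GMNN, the licensing inhibitor geminin, was above background on 2 of 3 SK-N-AS control arrays and differed by -2.90 on the log2 scale (-3.46 to -2.33). CCNE2, an E-type cyclin, was below background on every SK-N-AS control array and at least 2.14-fold lower. The treatment called 0 of the 37 in either line, with medians of 0.02 in SK-N-AS and -0.06 in SK-N-FI.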
